A study of Mus musculus with 4 samples.

Results

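The 33 genes described here mark the cells of blood vessels and of the brain's coverings, and they make up 18 endothelial, 11 mural and 4 meningeal genes out of 23991 gene symbols listed in each library. They were taken by symbol from a named list, and each had an entry in every library. The tissue was amygdala and the mice were NpyCre/+;TRAPlox/lox, in which Cre is driven from the gene of neuropeptide Y and acts on the lox allele of the TRAP construct. Translating ribosome affinity purification (TRAP) pulls down RNA held by tagged ribosomes, so that the immunoprecipitate (IP) is compared with the total input RNA of the same tissue. There were 2 IP and 2 input libraries, all of the same genotype, with RNA of 3 mice pooled in each, and no library from mice without Cre was analysed here. Age, sex and treatment of the mice are not given in the sources used here.

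Endothelial cells line the vessels and in the brain form the blood-brain barrier through tight junctions, transporters and efflux pumps. Mural cells, the pericytes of capillaries and the smooth muscle cells of larger vessels, sit on the outer side of the endothelium and regulate vessel tone. Fibroblasts of the meninges and of the perivascular space make collagens and small proteoglycans.

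Values are FPKM, that is, fragments scaled to transcript length and library size, which the authors made with Cufflinks. Summed over all entries they came to 334759 and 335119 in input replicates 1 and 2 and to 423985 and 419349 in IP replicates 1 and 2. Npy itself stood at 105.4 and 99.2 FPKM in the input libraries and at 1240 and 1167 in the IP libraries. The 6 GABAergic neuron markers, which include Npy, were higher in IP, against 37.0% of all genes tested. Their summed level, with Npy counted in it, was 652 to 680 FPKM in input and 6776 to 6974 in IP. Pecam1 and Cdh5, which define endothelium, were below 1 FPKM in every library, input included. Read totals are not in the values used here, so precision is given by the confidence limits deposited beside each FPKM.

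Nearly all of the 33 genes were lower in IP than in input. Of the 31 listed above 0 in any library, 29 had both IP values below both input values, against 42.8% of all 18023 genes above 0 in a library. Bsg was the exception above the input, and Esam overlapped between the groups. In 22 of the 31 the deposited confidence limits of both IP libraries also lay below those of both input libraries, against 21.8% of all genes. The 22 include Kcnj8, whose IP values and limits are all 0 and so give no width. A lower IP level here is a smaller share of the pulled-down RNA than of the input RNA of the same tissue. It does not measure the number of cells of a type or their RNA per cell. Tagln and Igfbp7 were listed at 0 in all 4 libraries.

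The test was limma on log2(FPKM + 1) over the 12416 genes with at least 1 FPKM in at least 2 libraries, and a gene was called at an adjusted p under 0.05. Of those genes 33.9% were lower in IP and 37.0% were higher, with a median log2 change of 0.03. Only 19 of the 33 genes passed the filter on low values, and 9 of them did so through the input libraries alone. Those 9 were Cldn5, Ly6c1, Ly6a, Slco1a4, Pdgfrb, Acta2, Myl9, Higd1b and Ogn. For them a lower IP level is built into the filter, so their adjusted p given below is no separate support. Of the 19, 17 were called lower, Bsg was called higher and Esam was not called. Among the 10 genes with at least 1 FPKM in a library of each group, 8 were lower, 1 was higher and 1 was not called, against 29.8% lower among the 11522 tested genes that met the same condition. Rescaling each library to the same sum moved the median of all genes to -0.29 and the calls over all genes from 4205 lower and 4597 higher to 6692 lower and 2227 higher, while Bsg stayed higher and the 17 lower genes stayed lower.

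The 14 genes below the filter were 8 endothelial, 5 mural and 1 meningeal gene. They were fitted in an alternative with no filter and a pseudocount of 0.1, chosen after the data were seen, in which 29.2% of 18023 genes were lower. All 12 of the 14 that were above 0 anywhere were lower there. In that fit 16 of 18 endothelial genes, 9 of the 9 mural genes above 0 and 4 of 4 meningeal genes were lower.

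**Figure D1:**
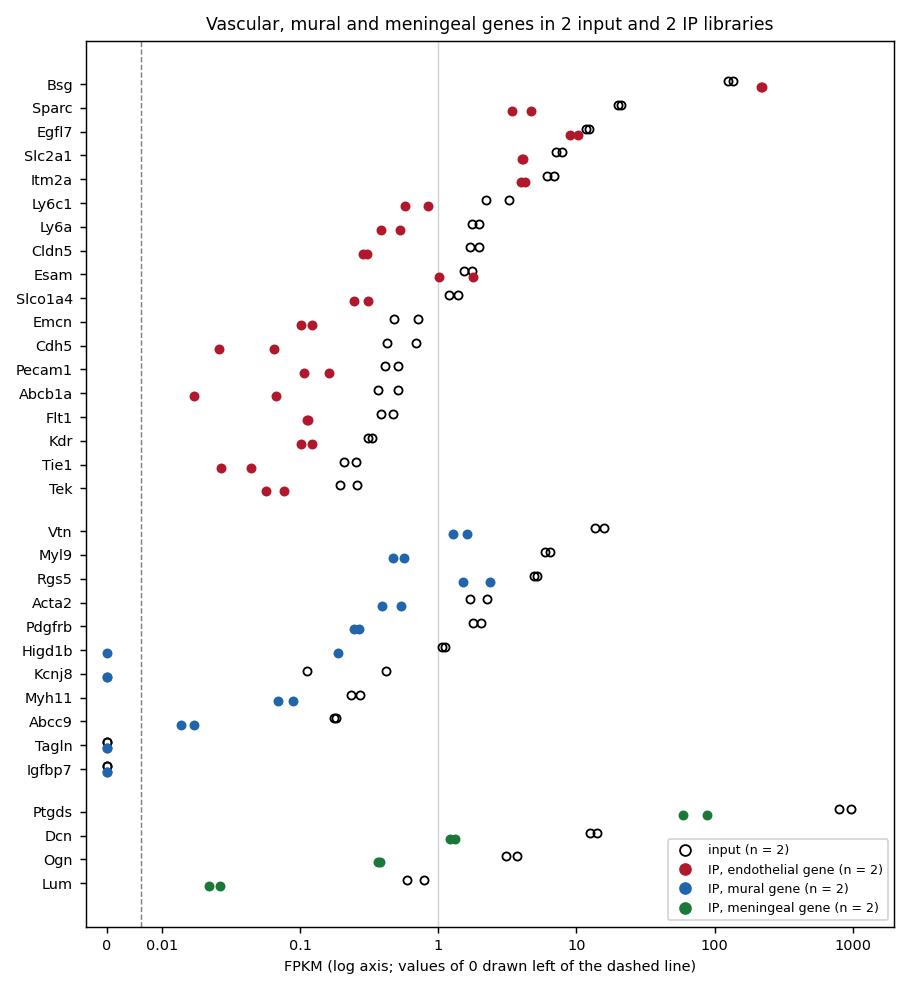
FPKM of each of the 33 genes in the 2 input and the 2 IP libraries on a log scale, by class, with 1 point per library. IP points lie to the left of input points for 29 genes, and Bsg is the gene whose IP points lie to the right.

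The size of the fall varied within and between the 3 classes. The ratio of the input mean to the IP mean had a median of 3.82 over the 18 endothelial genes (range 0.593 to 12.3), of 8.82 over the 8 mural genes above 0 in IP (2.62 to 12.01) and of 11.3 over the 4 meningeal genes (9.12 to 28.9). These ranges overlap, the genes of a class are not replicates, and the difference between classes was not tested. The top ratios of the endothelial and meningeal classes are those of Cdh5 and Lum, genes with IP values whose deposited limits reach 0. Without the 6 genes known to be expressed in many cell types (Bsg, Slc2a1, Sparc, Itm2a, Igfbp7 and Ptgds) the median ratio over all classes rose from 4.84 to 5.40. On the log2(FPKM + 1) scale the median change of the tested genes was -0.79 (endothelial, 10 genes), -1.14 (mural, 6 genes) and -2.66 (meningeal, 3 genes), which understates the change of low genes.

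**Figure D2:**
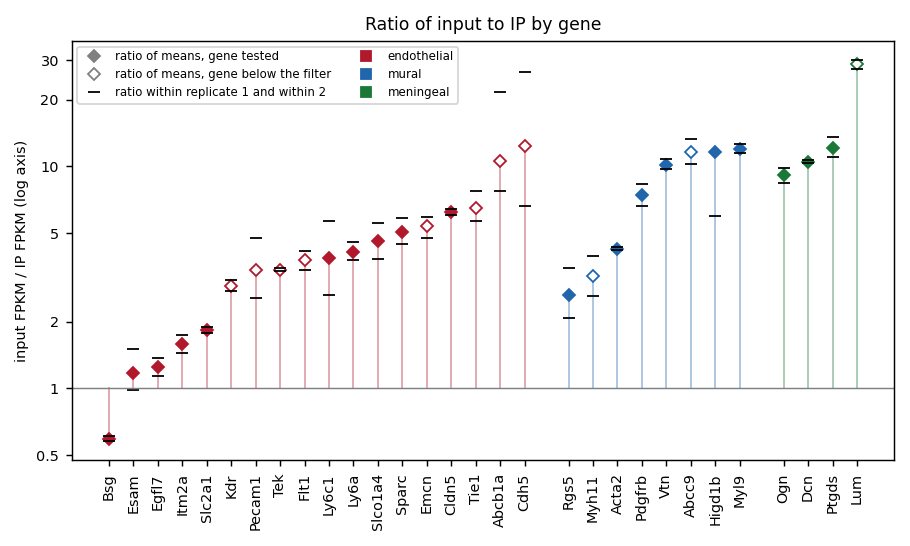
Ratio of the input mean to the IP mean for each gene above 0 in both groups, on a log scale by class, with filled diamonds for tested genes, open ones for genes below the filter, and dashes for the ratio within each replicate number. Endothelial genes reach from 0.593 (Bsg) to 12.3 (Cdh5), mural genes from 2.62 (Rgs5) to 12.01 (Myl9) and meningeal genes from 9.12 (Ogn) to 28.9 (Lum).

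Among the endothelial genes, those of the junctions come first. Cldn5 encodes claudin 5, the main claudin of the tight junctions of brain endothelium. Its promoter is shown because the gene is the barrier marker of the list, and it holds none of the motifs searched. The sequence is RefSeq's, 250 bases before to 50 after the gene start on the plus strand of GRCm38.p6, chr16:18776597-18776896.
Cldn5: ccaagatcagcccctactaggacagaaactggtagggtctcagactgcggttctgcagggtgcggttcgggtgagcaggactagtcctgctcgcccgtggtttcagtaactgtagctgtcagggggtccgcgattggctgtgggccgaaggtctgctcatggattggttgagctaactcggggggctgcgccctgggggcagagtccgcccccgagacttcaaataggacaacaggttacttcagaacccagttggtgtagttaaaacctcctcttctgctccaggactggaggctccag

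Cldn5 stood at 1.96 and 1.71 FPKM in the input libraries and at 0.304 and 0.284 in the IP libraries, with no overlap. Its mean fell 6.24-fold, from 1.83 ± 0.179 to 0.294 ± 0.0141 (SD, n = 2 pools per group), and its log2 change was -1.13 (SE 0.10, limma adjusted p = 0.000152). Cdh5, the cadherin of endothelial adherens junctions, was at 0.429 and 0.686 FPKM in input and at 0.0645 and 0.0258 in IP. The ratio of its means was 12.3, the highest among the endothelial genes, but it was 6.64 in replicate 1 and 26.5 in replicate 2. In IP replicate 2 the deposited limits of Cdh5 ran from 0 to 0.0624, so the size of its fall is poorly fixed. Pecam1, an adhesion molecule at the contacts between endothelial cells, was 3.42-fold lower in IP, where its deposited limits met those of the input. Esam, an adhesion molecule also found on platelets, was the exception. It was at 1.75 and 1.52 FPKM in input and, in IP, at 1.78 and 1.01, and the groups overlapped. Its log2 change was -0.15 (SE 0.16, adjusted p = 0.425). Leaving out IP replicate 1 gave -0.39 (adjusted p = 0.0372), and leaving out IP replicate 2 gave 0.079 (adjusted p = 0.591), so its direction depends on which IP library is kept. In both of these fits the IP group is 1 library, which is assumed to vary like the inputs.

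The receptors through which vessels grow and are kept were low in every library. Flt1 and Kdr, the receptors of VEGF, fell from 0.472 and 0.382 to 0.114 and 0.112 FPKM, and from 0.309 and 0.332 to 0.101 and 0.121 FPKM. Tek and Tie1, the pair of angiopoietin-related receptors, were 3.43-fold and 6.48-fold lower in IP. All 4 were below the filter, and in the fit without it their adjusted p ran from 0.00618 (Flt1) and 0.00639 (Tie1) to 0.0115 (Kdr) and 0.0169 (Tek). None of them reached 1 FPKM even in input. Emcn, a sialomucin of venous and capillary endothelium, fell 5.40-fold from 0.482 and 0.715 to 0.101 and 0.121 FPKM.

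Transport genes of the barrier fell by very different amounts. Slc2a1, the glucose transporter of the barrier, which other cells also make, was at 7.13 and 7.81 FPKM in input and at 4.01 and 4.13 in IP. It fell 1.84-fold (log2 change -0.74, SE 0.08, adjusted p = 0.000337). Slco1a4, an organic anion transporter of brain endothelium, fell from 1.38 and 1.19 to 0.247 and 0.311 FPKM, or 4.61-fold. The call for Slco1a4 was lost with quantile normalization (-0.23, adjusted p = 0.102) and was kept in the other settings in which it was tested. Abcb1a, which encodes P-glycoprotein, the efflux pump, was at 0.368 and 0.515 FPKM in input and at 0.017 and 0.0665 in IP, a ratio of 10.6 that differed between the pairs (21.6 and 7.74). Its deposited limits in IP replicate 1 ran from 0 to 0.0412. Ly6c1 and Ly6a, surface proteins of the Ly6 family, were at 3.26 and 2.23 and at 1.74 and 1.98 FPKM in input. Their IP levels were 0.575 and 0.844 (Ly6c1, 3.87-fold lower) and 0.383 and 0.526 (Ly6a, 4.10-fold lower). Both are called lower (adjusted p = 0.00101 and 0.000332). The genes are related neighbours of 1 family, 45986 bases apart, so reads may be split between them, and their deposited limits overlap between the groups.

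Bsg, basigin, is a membrane glycoprotein and chaperone of monocarboxylate transporters that neurons and glia also make. It was at 124.5 and 134.9 FPKM in input and at 215.5 and 221.8 in IP, and was the only gene of the 33 with both IP values above both input values. The rise was 1.69-fold, with a log2 change of 0.75 (SE 0.06, adjusted p = 8.43e-05). Its size depended on the scaling, with a log2 change of 0.28 under quantile normalization, 0.41 after rescaling and 0.81 with median-of-ratios size factors. The Bsg entry lies within that of Bc1, which was listed at 0 in all 4 libraries. Whether reads were assigned between Bsg and Bc1 was not tested. Itm2a, a membrane protein of the barrier that is found in several tissues, fell 1.59-fold (6.49 ± 0.564 to 4.08 ± 0.180 FPKM, SD, n = 2, log2 change -0.56, SE 0.09, adjusted p = 0.00159). The promoter of Itm2a is shown because it carries the ETS motif discussed below, here in capitals. It is RefSeq's GRCm38.p6 sequence on the minus strand, chrX:107403311-107403610. The match lies 243 bases before the start, on the strand opposite to the one printed.
Itm2a: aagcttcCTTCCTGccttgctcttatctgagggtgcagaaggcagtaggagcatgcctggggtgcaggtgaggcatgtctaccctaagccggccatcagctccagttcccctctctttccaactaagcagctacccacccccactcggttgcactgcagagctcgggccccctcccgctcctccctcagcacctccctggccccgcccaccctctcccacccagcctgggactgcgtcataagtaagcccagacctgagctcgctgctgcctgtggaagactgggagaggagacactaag

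Egfl7, a secreted endothelial factor, was at 11.7 and 12.3 FPKM in input and at 10.25 and 8.93 in IP, with a log2 change of -0.30 (SE 0.08, adjusted p = 0.0183). Its adjusted p was 0.077 when input replicate 1 was left out, 0.124 when input replicate 2 was, and 0.0774 when IP replicate 2 was, so it is not called when any of those is left out. Sparc, a matrix-binding secreted protein of many cell types, was at 19.9 and 21.0 FPKM in input and at 3.39 and 4.68 in IP, and fell 5.07-fold (log2 change -2.10, SE 0.13, adjusted p = 4.53e-05).

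**Figure D3:**
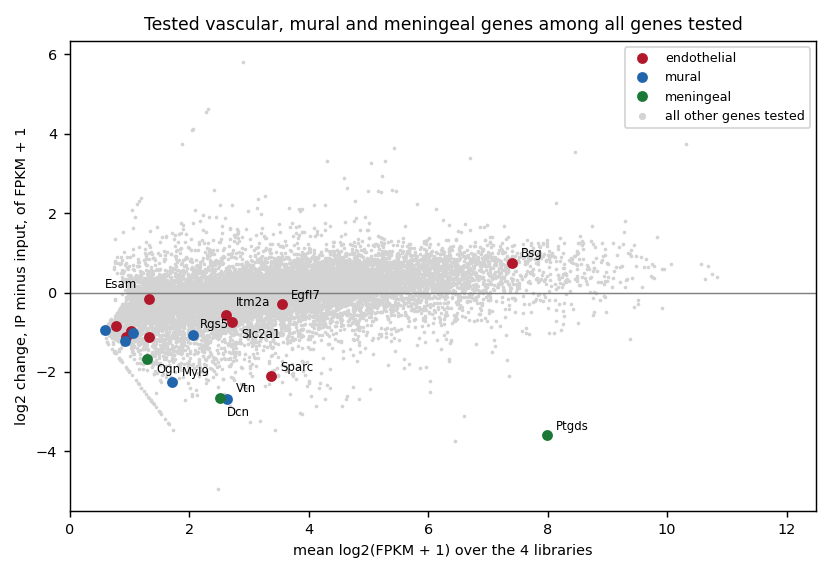
Log2 change (IP minus input) of each tested gene against its mean level on the log2(FPKM + 1) scale, with all 12416 tested genes in grey and the 19 tested vascular, mural and meningeal genes in colour. Of the coloured points 18 lie below 0, and Bsg lies above it.

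Mural genes were lower in IP wherever they were listed above 0. Pdgfrb encodes the receptor for PDGF-B that pericytes need for recruitment to vessels. It was at 1.77 and 2.03 FPKM in input and at 0.265 and 0.244 in IP, and its mean fell 7.47-fold, from 1.90 ± 0.187 to 0.255 ± 0.0153 (log2 change -1.21, SE 0.10, adjusted p = 0.000123). Rgs5, a regulator of G-protein signalling that marks pericytes, was at 5.21 and 4.89 in input and at 1.501 and 2.35 FPKM in IP. It fell by the least of the mural genes above 0 in both groups, 2.62-fold (log2 change -1.06, SE 0.15, adjusted p = 0.000918). Acta2, the smooth muscle actin, fell 4.25-fold from 2.23 and 1.70 to 0.533 and 0.393 FPKM (log2 change -1.02, SE 0.12, adjusted p = 0.000542).

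Further contractile and plasma genes of mural cells stood out by their ratios. Myl9 encodes the regulatory light chain of smooth muscle myosin. Its promoter is shown because it holds, in capitals, the 1 CArG box found in the 22 promoters matched, 161 bases before the start on both strands (RefSeq, GRCm38.p6, plus strand, chr2:156775214-156775513). A CArG box is the site that serum response factor is known to bind in smooth muscle genes. Vtn, vitronectin, is a plasma and matrix glycoprotein that is made by brain pericytes. Its promoter (RefSeq, GRCm38.p6, plus strand, chr11:78498870-78499169) is shown with its matches to TATAAA in capitals, at 135 bases before the start on the plus strand and 137 on the minus strand.
Myl9: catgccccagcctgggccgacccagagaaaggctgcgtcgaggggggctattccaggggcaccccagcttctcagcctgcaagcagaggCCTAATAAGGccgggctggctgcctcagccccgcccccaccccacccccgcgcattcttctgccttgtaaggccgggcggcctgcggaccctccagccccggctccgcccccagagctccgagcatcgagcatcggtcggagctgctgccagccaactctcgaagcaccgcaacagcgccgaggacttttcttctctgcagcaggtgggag
Vtn: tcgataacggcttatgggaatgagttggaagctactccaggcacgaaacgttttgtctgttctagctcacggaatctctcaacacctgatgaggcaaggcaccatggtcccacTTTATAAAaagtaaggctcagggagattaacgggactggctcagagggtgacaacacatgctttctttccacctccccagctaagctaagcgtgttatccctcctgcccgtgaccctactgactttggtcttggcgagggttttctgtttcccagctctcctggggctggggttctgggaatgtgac

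Myl9 stood at 5.90 and 6.44 FPKM in input and at 0.467 and 0.561 in IP, a 12.01-fold fall (log2 change -2.24, SE 0.09, adjusted p = 2.1e-05). Vtn fell from 13.7 and 15.7 to 1.27 and 1.62 FPKM, or 10.2-fold (log2 change -2.68, SE 0.11, adjusted p = 2.07e-05). For both genes the IP values lie below the input values. Myl9 is among the 9 genes that met the filter in input alone. Higd1b, a small mitochondrial protein of pericytes, was at 1.07 and 1.12 FPKM in input and listed at 0 and at 0.187 in IP, with a log2 change of -0.94 (SE 0.12, adjusted p = 0.000652) that missed the threshold under quantile normalization (-0.37, adjusted p = 0.0569). Myh11, the smooth muscle myosin heavy chain, was 3.20-fold lower in IP, from 0.232 and 0.273 to 0.089 and 0.0687 FPKM.

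Kcnj8 and Abcc9 encode the pore and the regulatory subunit of the ATP-sensitive potassium channel of pericytes, and lie next to each other, 16505 bases apart. Kcnj8 was at 0.421 and 0.113 FPKM in input and was listed at 0 in both IP libraries. Its adjusted p without a filter was 0.0337 with a pseudocount of 0.1 and 0.0905 with a pseudocount of 1, so its call rests on that choice. Abcc9 was at 0.174 and 0.181 FPKM in input and at 0.017 and 0.0136 in IP, a ratio of 11.6. Its IP limits ran from 0 to 0.0467 and from 0 to 0.0466, so the size of that ratio is poorly fixed. Tagln, a smooth muscle actin-binding protein, and Igfbp7, a secreted protein of vessels, were listed at 0 in all 4 libraries. Each of those entries shares bases with a neighbour, Tagln 95 with Pcsk7 and Igfbp7 89 with Polr2b. Pcsk7 was at 4.92 and 4.97 FPKM in input, at 0 in IP replicate 1 and at 3.23 in IP replicate 2, and Polr2b was at 15.3 and 15.9 in input and 18.1 and 18.9 in IP. Whether reads of Tagln or Igfbp7 were assigned to their neighbour was not tested.

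All 4 meningeal genes were lower in IP. Ptgds, prostaglandin D2 synthase, is made in the leptomeninges and choroid plexus and also by oligodendrocytes. It was at 796 and 972 FPKM in input and at 59.0 and 87.7 in IP, a 12.05-fold fall (log2 change -3.59, SE 0.19, adjusted p = 3.26e-05). Dcn, decorin, a small leucine-rich proteoglycan of fibroblasts, was at 12.6 and 14.1 FPKM in input and at 1.21 and 1.33 in IP. It fell 10.5-fold (log2 change -2.66, SE 0.09, adjusted p = 1.36e-05). Lum, lumican, of the same family, is its neighbour at 47338 bases, and stood at 0.596 and 0.791 FPKM in input and at 0.0218 and 0.0262 in IP, which gives the highest ratio of all, 28.9. The deposited limits of these IP values ran from 0 to 0.0654 and from 0 to 0.0786, so the size of that ratio is poorly fixed.

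Ogn, osteoglycin, is another proteoglycan of that family. It fell 9.12-fold, from 3.08 and 3.70 to 0.366 and 0.377 FPKM (log2 change -1.67, SE 0.11, adjusted p = 5.14e-05), and its entry lies within that of Cenpp, at 1.10 and 0.903 FPKM in input and, in IP, at 1.498 and 1.57. Its promoter is shown with the matches to TATAAA in capitals, at 227 bases before the start on the plus strand and 229 on the minus strand (RefSeq, GRCm38.p6, plus strand, chr13:49607765-49608064). RefSeq's start lies 56 bases from the edge of the gene as the files give it.
Ogn: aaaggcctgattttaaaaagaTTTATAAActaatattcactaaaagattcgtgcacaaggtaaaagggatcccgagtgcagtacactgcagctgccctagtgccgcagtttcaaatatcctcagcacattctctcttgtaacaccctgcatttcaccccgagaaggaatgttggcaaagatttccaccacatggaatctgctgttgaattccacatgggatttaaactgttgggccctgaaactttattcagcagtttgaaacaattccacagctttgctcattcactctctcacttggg

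RefSeq promoters were matched by symbol for 22 of the 33 genes, and searched on both strands for the CArG box, for TATAAA and for an ETS motif written as CCGGAAG or CAGGAAG. The CArG box was in 1 of the 22 (Myl9) and in 1.63% of 32851 promoters of the same length. TATAAA was in 5 of the 22 (Flt1, Ly6c1, Ogn, Slc2a1 and Vtn) and in 13.62% of all, and the ETS motif was in 3 (Egfl7, Emcn and Itm2a) and in 20.93% of all. The counts are of genes with a match in any of their promoters, while the percentages are of promoter entries, so the 2 are not the same measure. A match only says that these letters stand in the window.

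All 4 meningeal genes were higher in input 2 than in input 1 and higher in IP 2 than in IP 1. Within each group the deposited limits of the 2 libraries overlapped for Dcn, Lum and Ogn, but not for Ptgds. Over all classes, input 2 was the higher in 21 of 31 genes and IP 2 in 19 of 30. The same holds for most astrocyte markers, with 7 of 8 higher in input 2 and 6 of 7 higher in IP 2, but not for the 8 oligodendrocyte markers, of which 0 were higher in input 2 and 8 in IP 2. The choroid plexus and ependymal list summed to 189.5 FPKM in input 1 and 18.3 in input 2, mostly through Ttr, the transthyretin of choroid plexus (172 and 9.66), while Ptgds was 796 and 972 in the same libraries. The part of that difference in the levels of meningeal genes was not tested.

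Other genes of the same biology, on lists chosen like the 33, were read the same way. In vascular signalling (31 genes, 19 tested) 13 were lower, 4 were higher and 2 were not called, with a median log2 change of -0.68, against 33.9% lower and 37.0% higher among all genes tested. For 5 of the 19 the filter was met in the input libraries alone. The S1P receptor S1pr1 fell from 23.0 and 21.0 to 3.49 and 5.57 FPKM (log2 change -2.08), the peptide ligand Apln fell 5.86-fold (-1.37), and Vegfa, the main angiogenic ligand, fell from 20.5 and 17.7 to 7.42 and 8.26 FPKM (-1.18). The ligand Wnt7a rose from 2.25 and 2.86 to 5.30 and 6.43 FPKM (0.95), and Vegfb rose from 37.4 and 38.8 to 63.9 and 63.2 (0.72). Tgfbr2 also rose (0.46), and this call was lost after rescaling (0.30, adjusted p = 0.0533), where 2 genes of the list were higher in place of 4.

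Further barrier and endothelial genes (36 of 38 listed, 21 tested) had 14 lower, 4 higher and 3 not called, beside the same shares over all genes, and 8 of the 21 met the filter in input alone. Pltp, a phospholipid transfer protein, was at 8.69 and 7.57 FPKM in input and was listed at 0 in both IP libraries (log2 change -3.19). Whether reads of Pltp in the IP libraries were assigned to another entry was not tested. Ifitm3, an interferon-induced membrane protein, fell 6.47-fold and Slc22a8, an organic anion transporter, fell 12.3-fold. The fenestration gene Plvap rose from 6.20 and 6.96 to 12.2 and 14.3 FPKM (log2 change 0.91), as did the adrenomedullin receptor subunit Ramp2 (0.85) and the transcription factor Ets1 (0.70). Which cells carried the RNA of these 3 was not tested. Further mural genes (24 genes, 12 tested) had 7 lower, 2 higher and 3 not called, against 33.9% lower and 37.0% higher among all genes tested. Their median log2 change was -0.41, and it was -0.23 without input replicate 1. Of those 12, 4 met the filter in input alone. The largest called changes were the smooth muscle kinase Mylk (-1.19), Cald1 (-1.17) and Mcam (-1.14) downward, and Sncg (0.85) and Tpm2 (0.77) upward, with Ndufa4l2 listed at 0 in all libraries. Further meningeal and fibroblast genes (26 genes, 21 tested) were lower in 21 of 21, against 33.9% of all genes tested. For 15 of the 21 the filter was passed through input alone, so that their lower level is built in. The largest falls were those of the growth factor Igf2 (-3.27), Aldh1a2 (-2.61) and Fmod (-2.41).

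**Figure D4:**
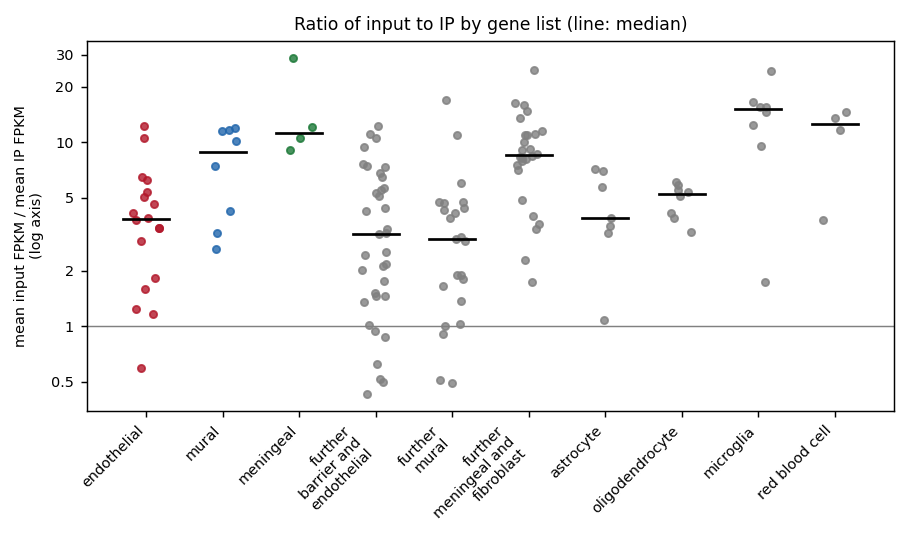
Ratio of the input mean to the IP mean for the genes of each list above 0 in both groups, on a log scale, with 1 point per gene and a line at the median. The medians are 3.82 for endothelial, 8.82 for mural and 11.3 for meningeal genes, 3.86 for astrocyte, 5.21 for oligodendrocyte and 15.1 for microglia markers.

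Markers of other cell types moved alongside. Of the tested markers 7 of 8 astrocyte, 8 of 8 oligodendrocyte, 8 of 8 microglia, 4 of 6 choroid plexus and ependymal (2 with quantile normalization) and 3 of 3 red blood cell genes were lower in IP, against 33.9% of all genes tested. Of these, 7 of the 8 microglia, 3 of the 6 choroid plexus and ependymal and 1 of the 8 astrocyte markers passed the filter through the input libraries alone, so that their lower level is built in. Their median ratios of 3.86 (astrocyte), 5.21 (oligodendrocyte) and 15.1 (microglia) stand beside 3.82 (endothelial), 8.82 (mural) and 11.3 (meningeal), and the difference was not tested. The astrocyte median covers 7 of 8 markers, since the other was at 0 in both IP libraries. On the log2(FPKM + 1) scale the tested medians were -2.08 (astrocyte), -2.06 (oligodendrocyte) and -2.06 (microglia). Beside them stand -0.79 (endothelial), -1.14 (mural) and -2.66 (meningeal), on a scale that understates the change of low genes. The astrocyte gene Gfap was not called, at 38.2 and 51.9 FPKM in input and, in IP, at 32.97 and 50.1. Summed over the 11 mural genes, the level was 30.7 and 32.5 FPKM in the input libraries against 4.14 and 5.44 in the IP libraries. The sum over the 18 endothelial genes was higher in IP, at 182.5 and 195.0 FPKM in input against 241.3 and 247.1, and most of it was Bsg. Without the widely expressed genes the endothelial sum was 24.8 and 24.4 FPKM in input against 14.1 and 12.6 in IP. Whether RNA of these cells in the IP came through tagged ribosomes was not tested.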

How the data were processed

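Amygdala RNA of NpyCre/+;TRAPlox/lox mice was sequenced in 2 IP and 2 input libraries, each a pool of 3 mice, from 200 ng of RNA. Per the design text, reads were single-end and 100 bp long. TopHat, mm10 and UCSC gene models were used for alignment per the design text, and versions are not given in the submitters' processing notes. The deposited values are gene-level FPKM that the authors made with Cufflinks, with a status and confidence limits for each entry per the file headers. Strand use, and scaling between libraries, are not given in the sources used here. The authors' Cuffdiff results were not used.

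Groups and replicate numbers came from the sample titles. The source name of IP replicate 2 gives replicate 1, and the title was followed. The design text ties each IP to its corresponding input, so same-numbered libraries count as pairs, and the deviations of such pairs correlated at 0.159. Pearson correlations were 0.994 (inputs) and 0.995 (IPs), with 0 identical values at FPKM of at least 5. The p-values measure the spread between 2 pools a group. Of 20 housekeeping genes, 0 were listed at 0. Read depth is unknown, since FPKM hold no totals.

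The 8 entries with a failed status and 1283 small RNA entries were left out, and the entry with the highest mean was kept per symbol (22758 symbols). The main test was lmFit and eBayes with trend in limma 3.58.1 (R 4.3.3) on log2(FPKM + 1), two-sided, without a block, with Benjamini-Hochberg adjustment over 12416 genes. Folds are ratios of mean FPKM. The code of the fit was run on simulated data with the same spread for every gene, which is no test of the calls made here. Python 3.11.15 with pandas 2.3.3, numpy 2.4.6 and matplotlib 3.10.9 made the tables and figures. Promoters are RefSeq's.

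The members and lists were chosen with earlier results of these data known. Every member was named. Of the vascular signalling list and the further barrier, mural and meningeal lists, the 3 largest called changes in each direction without overlap were named, plus genes listed at 0 in a group. Alternatives were the pseudocount, the filter, rescaling, quantile normalization, size factors, the robust option of eBayes, eBayes with no trend, a replicate block, summed entries, a transcript length correction (lengths for 99.4% of genes tested), the widely expressed members left out, and each library left out.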

Additional observations from a re-analysis of the deposited data

How the results depend on the processing

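Over 19 genes and 18 settings, 323 of 332 gene results kept direction and side of the threshold, 5 lost the call, 2 gained it and 2 reversed. Those 9 belong to 4 genes, Egfl7, Esam, Slco1a4 and Higd1b. Esam changed sign with quantile normalization (0.27, adjusted p = 0.177) and without IP replicate 2 (range over left-out libraries -0.39 to 0.079). It passed without IP replicate 1 and with the replicate block plus length correction (-0.39, adjusted p = 0.0329). With the replicate block alone, 8 endothelial, 6 mural and 3 meningeal genes were lower and 9112 genes were called against 8802, and no call of a member changed.

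The median log2 change (endothelial, mural, meningeal) moved to -1.33, -2.65 and -3.29 with a pseudocount of 0.1, and to -0.34, -0.47 and -1.55 with 5. With no filter it was -0.49, -1.02 and -2.17, with 16 endothelial genes lower. At a filter of 5 FPKM it was -0.56, -2.46 and -3.13, and 4 endothelial and 2 mural genes were lower, since fewer were tested. After rescaling it was -1.35, -1.96 and -3.36, and with quantile normalization -0.40, -0.71 and -2.48. The length correction, with or without the replicate block, gave -1.32 (mural) and -2.91 (meningeal). No filter with a pseudocount of 0.1 gave -1.29, -1.88 and -3.09, and 16 endothelial genes lower. Without the widely expressed genes 5 endothelial genes were lower, with medians of -0.91 (endothelial) and -2.17 (meningeal). With each library left out, which leaves 1 library in that group and takes the spread from the other, medians ran from -1.24 to -1.14 (mural) and from -2.74 to -2.58 (meningeal). The cause of these shifts was not tested beyond what each setting alters. FPKM without read totals limit what can be said of genes below 1 FPKM.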
